A study of Mus musculus with 8 samples.

Results

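Type I interferons are secreted antiviral cytokines. They bind the receptor chains Ifnar1 and Ifnar2, the kinases Jak1 and Tyk2 carry the signal inside the cell, and a complex that holds Irf9 enters the nucleus to switch on interferon-stimulated genes. The products of these genes sense foreign nucleic acid, block viral replication, modify proteins with the ubiquitin-like protein ISG15, and feed back on the pathway. T cells carry the receptor and keep a low level of the program without infection. The genes described here are a list of 38 interferon-stimulated genes chosen by name. Of these, 36 could be read among the 19938 genes of the array that have a transcript cluster (a set of probes summarised to 1 value) with 1 gene symbol. Isg15 shares its only cluster with another symbol and Ifi44 had no cluster under its name, so neither is reported.

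RNA came from sorted naive CD4 T cells, helper T cells that have not met antigen. Cells of wild-type mice (n = 4) and of mice with a conditional Bcl6-/- genotype restricted to T cells (n = 4, called Bcl6 cKO here) were compared, 1 array per sample. Both groups had received CD3 and CD28 antibodies, which mimic antigen, for the 24 hours before RNA was taken. The labels give no strain, age, sex or Cre driver, do not say whether a sample is 1 mouse or a pool, and do not tell whether replicates are separate animals. The p-values therefore speak of the variation among these 8 samples, which may be technical. In bulk RNA, fewer cells of a type and less RNA per cell cannot be told apart.

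The labelled cell type was checked first, and Bcl6 signal was read. The means of 5 T cell markers, Cd4 and Cd3e among them, were 12.7 on the log2 scale on every wild-type array and 12.4 to 12.6 on Bcl6 cKO arrays. Markers of B cells (5 measured) averaged 6.24 to 6.29 and 6.24 to 6.37, and those of macrophages and dendritic cells (7) 6.18 to 6.30 and 6.17 to 6.39. The 4 markers of plasmacytoid dendritic cells, the main producers of type I interferon, averaged 7.02 to 7.22 in wild type and 6.95 to 7.14 in Bcl6 cKO, and the 4 NK cell markers 5.72 to 6.08 and 5.80 to 6.01. Of the CD8 chains, Cd8a ranged from 6.93 to 7.14 in wild type and from 6.90 to 7.05 in Bcl6 cKO. Cd8b1 ranged from 10.90 to 11.12 in wild type and from 10.41 to 10.78 in Bcl6 cKO, without overlap, a log2 difference of -0.47 (adjusted p = 0.0541 in limma). This p was smaller than that of any member, and its part in the members' values was not tested. All 5 T cell markers were lower in Bcl6 cKO, by a median log2 difference of -0.12. Cd3d had the smallest p of them (-0.17, adjusted p = 0.242 in limma). The part of this shift in the members' values was not tested either. Background was taken from 3 Y-linked genes on the 4 arrays with high Xist, where they ranged from 4.58 to 5.83. At or below it lay the B cell markers Ms4a1 and Ebf1, the macrophage marker Adgre1, and the NK cell markers Ncr1, Klrb1c and Gzma. Bcl6 signal ranged from 8.10 to 8.56 in wild type and from 8.40 to 9.05 in Bcl6 cKO. It was higher in Bcl6 cKO by 0.37 on the log2 scale (adjusted p = 0.337 in limma). Which exons were deleted is not given, so Bcl6 signal is no check of the labels. The Y-linked genes were high on wild-type arrays 1 to 3 and on array 1 of Bcl6 cKO, and low with high Xist on the other 4, so sex, which the labels do not give, and genotype partly overlap, and differences within each set of arrays are given for the members and receptors on which they bear most. Wild-type replicate 4 was the most variable array, with deviations from the gene medians whose interquartile range was 0.18, against 0.085 to 0.115 on the other arrays.

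The question was whether loss of Bcl6, a transcriptional repressor, changed the interferon-stimulated genes of activated naive CD4 T cells. None of the 36 members passed an adjusted p of 0.05 in limma, a linear model fitted to all genes, while 0.221% of all genes passed in either direction. Of the members, 27 were lower and 9 higher in Bcl6 cKO (75.0% lower, against 47.9% of all genes). Their median log2 difference, Bcl6 cKO minus wild type, was -0.12, and the median over all genes was 0.0025. An unadjusted p under 0.05 was found for 10 members, 8 of them lower (Sp100, Ifit3, Ifit1, Ifit2, Oasl2, Samd9l, Herc6 and, at background level, Mx2) and 2 higher (Bst2 and Eif2ak2). Over all genes 10.9% had such a p, 6.17% lower and 4.68% higher. The genotypes did not overlap for 1 member, Eif2ak2, which was higher, against 5.97% of all genes in either direction and 2.33% in that direction.

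The balance rested partly on single arrays. Without wild-type replicate 2, 14 of the 36 members were higher and the median was -0.034. The median was -0.033 without Bcl6 cKO replicate 3, -0.19 without wild-type replicate 3 and -0.21 without Bcl6 cKO replicate 2. Among arrays with high Y-linked signal 28 members were lower in Bcl6 cKO, with a median of -0.098, and among the rest 27 were lower, with a median of -0.14. Each of those comparisons sets a lone array of 1 genotype against 3. The sign turned among arrays with high Y-linked signal for Samd9l, Bst2, Lgals3bp, Trim25 and Mx1, and among the rest for Oasl1 and Isg20.

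**Figure D1:**
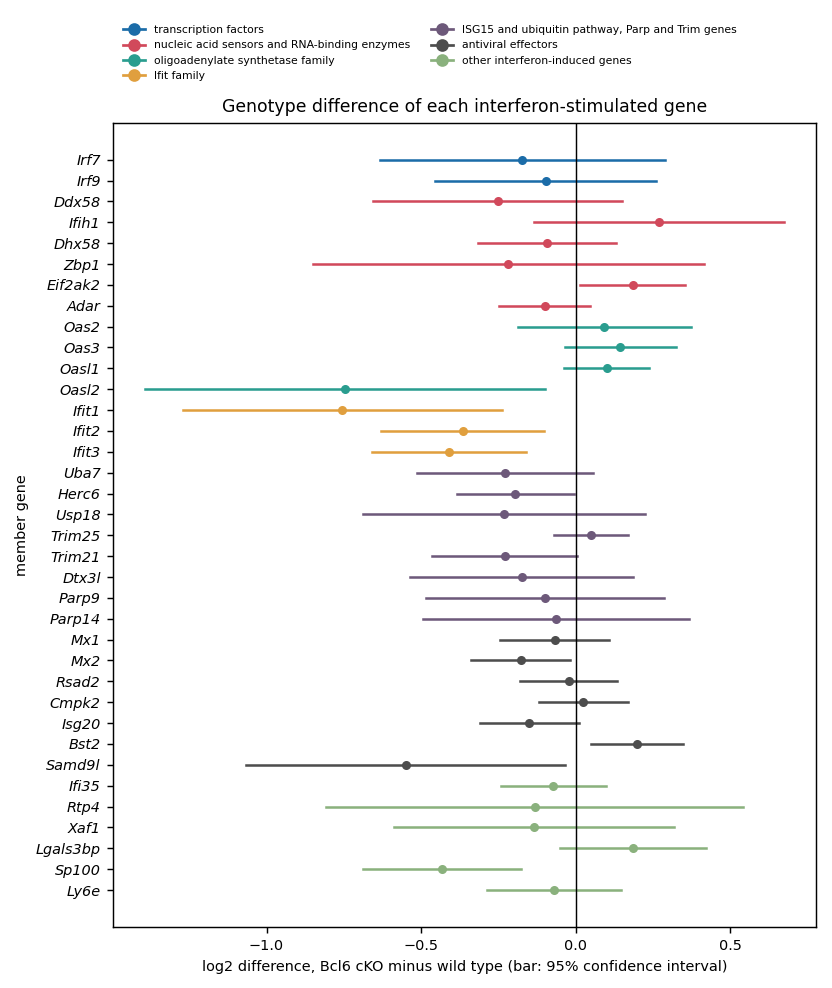
Log2 difference (Bcl6 cKO minus wild type, horizontal axis) of each of the 36 members with its 95% confidence interval from limma, coloured by role. The Ifit genes, Oasl2, Samd9l and Sp100 lie farthest to the left, and most intervals include 0.

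The Ifit genes encode proteins that bind viral RNA and hold back its translation, and all 3 were lower in Bcl6 cKO with an unadjusted p under 0.05. Ifit1 read 8.46, 7.89, 8.31 and 7.46 on wild-type arrays 1 to 4 and 7.71, 7.37, 7.30 and 6.72 on Bcl6 cKO arrays 1 to 4. The 3 highest values were all wild type, but wild-type replicate 4 fell below Bcl6 cKO replicate 1, so the groups overlapped. The log2 difference was -0.755 (95% confidence interval -1.27 to -0.24), a 1.69-fold lower signal, with an adjusted p of 0.256 (limma). Ifit2 read 8.83, 9.01, 8.79 and 8.69 in wild type and 8.81, 8.33, 8.52 and 8.20 in Bcl6 cKO. Bcl6 cKO replicate 1 lay among the wild-type values and the other Bcl6 cKO arrays lay below all of them. Its log2 difference was -0.365 (-0.63 to -0.10, adjusted p = 0.283 in limma). Ifit3 read 7.82, 7.89, 8.03 and 7.70 in wild type and 7.72, 7.48, 7.47 and 7.13 in Bcl6 cKO, and again a single Bcl6 cKO array, replicate 1, overlapped. Its log2 difference was -0.41 (-0.66 to -0.16, adjusted p = 0.201 in limma).

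Bcl6 cKO replicate 1 is also the Bcl6 cKO array with high Y-linked signal. Among arrays with high Y-linked signal the log2 differences of Ifit1, Ifit2 and Ifit3 were -0.51, -0.067 and -0.19, and among the rest they were -0.33, -0.34 and -0.34. With Y-linked signal as a term in the fit the differences were -0.42, -0.20 and -0.27 (adjusted p = 0.483, 0.530 and 0.415 in limma). All 3 kept their direction in both sets, at smaller sizes than in the comparison of all arrays. Whether sex has a part in the difference was not tested beyond these values.

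The promoters of Ifit1 and Ifit3 are shown because their interferon response elements carry the same letters. These are the 250 bases before the transcript start in RefSeq (GRCm38.p6, plus strand), Ifit1 at chr19:34640639-34640888 and Ifit3 at chr19:34583279-34583528. Capitals mark the core of the interferon-stimulated response element, which is GAAA, any 2 bases and GAAA again, here read on the other strand.
Ifit1: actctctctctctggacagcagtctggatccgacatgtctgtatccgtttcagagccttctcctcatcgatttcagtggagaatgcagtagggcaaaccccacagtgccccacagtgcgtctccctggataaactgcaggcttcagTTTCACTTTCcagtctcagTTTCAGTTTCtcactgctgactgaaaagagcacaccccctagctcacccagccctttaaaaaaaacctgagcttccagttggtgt
Ifit3: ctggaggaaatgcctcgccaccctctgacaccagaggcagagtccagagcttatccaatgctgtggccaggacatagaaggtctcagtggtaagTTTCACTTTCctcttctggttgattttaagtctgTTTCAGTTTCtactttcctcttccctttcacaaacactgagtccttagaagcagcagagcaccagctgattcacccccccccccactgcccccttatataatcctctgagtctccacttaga
Both promoters hold TTTCACTTTC followed by TTTCAGTTTC, beginning 104 and 85 bases before the start in Ifit1 and 156 and 122 bases before it in Ifit3.

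**Figure D2:**
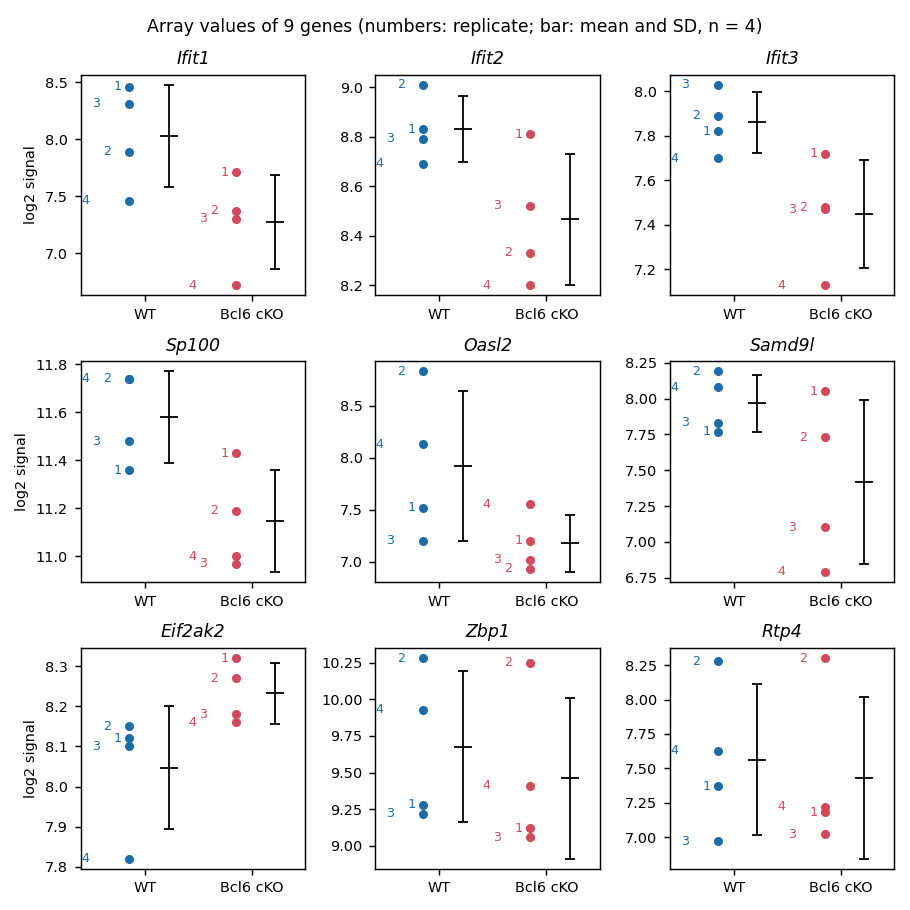
Log2 signal (vertical axis, a separate scale for each gene) on each array for 9 members, wild type in blue and Bcl6 cKO in red, with the replicate number beside each point and the mean and SD (n = 4) as a bar. The Ifit genes and Sp100 sit lower in Bcl6 cKO, while Zbp1 and Rtp4 are highest on array 2 of both genotypes.

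The transcription factors of the program did not separate the genotypes. Irf7, which amplifies interferon production, read 7.34, 8.02, 7.34 and 7.74 in wild type and 7.21, 8.02, 7.04 and 7.48 in Bcl6 cKO. Array 2 gave the same value in both genotypes, and the log2 difference of -0.17 (-0.63 to 0.29, adjusted p = 0.849 in limma) was smaller than the spread within either group. Irf9, the DNA-binding subunit of that complex, ranged from 9.80 to 10.28 in wild type and from 9.55 to 10.35 in Bcl6 cKO (log2 difference -0.098, adjusted p = 0.900 in limma).

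Among 6 nucleic acid sensors and RNA-binding enzymes 2 were higher and 4 lower. Eif2ak2, which encodes the double-stranded RNA-activated kinase PKR, read 8.12, 8.15, 8.10 and 7.82 in wild type and 8.32, 8.27, 8.18 and 8.16 in Bcl6 cKO. All Bcl6 cKO values lay above all wild-type values, the nearest pair differing in the second decimal place (8.15 and 8.16). Its log2 difference was 0.185 (0.015 to 0.36, adjusted p = 0.410 in limma), and 0.11 without wild-type replicate 4. The groups overlapped after each array was centred on its median. Ifih1, which encodes the RNA sensor MDA5, read 8.53, 8.45, 8.61 and 8.32 in wild type and 9.21, 8.32, 9.07 and 8.39 in Bcl6 cKO. It was picked after its values were seen, because Bcl6 cKO arrays 1 and 3 lay above every wild-type array while arrays 2 and 4 lay within the wild-type range. Its log2 difference was 0.27 (-0.14 to 0.68, adjusted p = 0.663 in limma), with 0.68 among arrays with high Y-linked signal and 0.27 among the rest.

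The RNA sensor gene Ddx58, which encodes RIG-I, had a log2 difference of -0.25 (adjusted p = 0.689 in limma), with values from 8.93 to 9.60 in wild type and from 8.66 to 9.43 in Bcl6 cKO. Its regulator Dhx58 differed by -0.092 and the RNA-editing enzyme Adar by -0.10. The nucleic acid sensor Zbp1, also picked after its values were seen, read 9.28, 10.28, 9.22 and 9.93 in wild type and 9.12, 10.25, 9.06 and 9.41 in Bcl6 cKO. It varied by 1.06 between wild-type arrays and by 1.19 between Bcl6 cKO arrays, against a genotype difference of -0.22 (-0.85 to 0.41, adjusted p = 0.866 in limma).

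The oligoadenylate synthetases make a small messenger that activates an RNA-degrading enzyme, and the Oasl genes are their relatives. Oasl2 read 7.52, 8.83, 7.20 and 8.13 in wild type and 7.20, 6.93, 7.02 and 7.55 in Bcl6 cKO. Wild-type replicates 2 and 4 lay above every Bcl6 cKO array and wild-type replicates 1 and 3 lay within their range, so the wild-type range of 1.63 was the widest of any member. The log2 difference was -0.745 (-1.39 to -0.098, adjusted p = 0.382 in limma), and -0.44 without wild-type replicate 2. It was -0.65 among arrays with high Y-linked signal and -0.96 among the rest. Oas2, Oas3 and Oasl1 were higher by 0.092, 0.145 and 0.10, with adjusted p-values of 0.872, 0.570 and 0.621 (limma). Oasl1 values spanned only 0.07 on the Bcl6 cKO arrays, and its difference was 0.13 among arrays with high Y-linked signal and -0.053 among the rest.

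Of the 8 measured genes of the ISG15 and ubiquitin pathway with the Parp and Trim genes, 7 were lower. Herc6, whose product attaches ISG15 to proteins in the mouse, read 8.80, 8.63, 8.75 and 8.49 in wild type and 8.60, 8.52, 8.50 and 8.27 in Bcl6 cKO. Wild-type replicate 4 was below 3 of the Bcl6 cKO arrays, and the groups overlapped. The log2 difference was -0.195 (-0.38 to -0.0056, adjusted p = 0.442 in limma), -0.13 without Bcl6 cKO replicate 4 and -0.093 with Y-linked signal in the fit. Uba7, the ISG15-activating enzyme, differed by -0.23, and Usp18, which removes ISG15 and inhibits the receptor, by -0.23. The ubiquitin ligase and antibody receptor Trim21 also differed by -0.23 (-0.47 to 0.0058, adjusted p = 0.474 in limma), and Trim25, the ubiquitin ligase that activates RIG-I, by 0.050. Dtx3l and its partner Parp9, neighbouring genes of chromosome 16 like Parp14, differed by -0.175, -0.10 and, for Parp14, -0.062. These 3 genes had wild-type ranges of 0.55 to 0.81, wider than any of their genotype differences.

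Of 7 antiviral effectors 5 were lower and 2 higher. Samd9l, an antiviral and growth-restraining factor, read 7.77, 8.19, 7.83 and 8.08 in wild type and 8.05, 7.73, 7.10 and 6.79 in Bcl6 cKO. Bcl6 cKO replicate 1 lay within the wild-type range, replicate 2 just below it and replicates 3 and 4 well below. The log2 difference was -0.55 (-1.07 to -0.035, adjusted p = 0.420 in limma), and -0.34 without Bcl6 cKO replicate 4. The sign turned, to 0.12, among arrays with high Y-linked signal, and among the rest the difference was -0.87. Bst2, the tetherin that holds budding virus at the cell surface, read 9.32, 9.30, 9.36 and 9.17 in wild type and 9.32, 9.57, 9.52 and 9.53 in Bcl6 cKO. Bcl6 cKO replicate 1 matched wild type and the other Bcl6 cKO arrays lay above it. Its log2 difference was 0.20 (0.049 to 0.35, adjusted p = 0.304 in limma), -0.0067 among arrays with high Y-linked signal and 0.37 among the rest.

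The dynamin-like GTPase genes Mx1 and Mx2 were not shown to stand above background, with means of 4.87 and 5.46 in wild type and 4.81 and 5.28 in Bcl6 cKO, and no fold is given for them. Mx2 read 5.43, 5.34, 5.41 and 5.65 in wild type and 5.29, 5.26, 5.38 and 5.19 in Bcl6 cKO (adjusted p = 0.399 in limma), and its groups overlapped. Rsad2 (viperin) and its neighbour Cmpk2, which together produce antiviral nucleotides, differed by -0.022 and 0.025, and every array lay between 5.97 and 6.54 for these genes. The exonuclease gene Isg20 differed by -0.15 (adjusted p = 0.499 in limma), and its Bcl6 cKO values spanned only 0.10.

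In the last 6 genes, 5 were lower and 1 higher. Sp100, a component of PML nuclear bodies, had the smallest p of all members. It read 11.36, 11.74, 11.48 and 11.74 in wild type and 11.43, 11.19, 10.97 and 11.00 in Bcl6 cKO. Bcl6 cKO replicate 1 lay just above the lowest wild-type array and the others lay below all wild-type arrays. The log2 difference was -0.43 (-0.69 to -0.18, 1.35-fold lower, adjusted p = 0.183 in limma). It was -0.097 among arrays with high Y-linked signal and -0.69 among the rest.

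Rtp4, an interferon-induced chaperone that helps receptors reach the cell surface, read 7.37, 8.28, 6.97 and 7.63 in wild type and 7.18, 8.30, 7.02 and 7.22 in Bcl6 cKO. Array 2 was the highest in both genotypes by more than the whole genotype difference of -0.13 (-0.81 to 0.54, adjusted p = 0.937 in limma). Xaf1, a pro-apoptotic factor, also differed by -0.135, Ifi35 by -0.072 and the surface antigen gene Ly6e by -0.070. Lgals3bp, a secreted glycoprotein gene, was higher by 0.185 (adjusted p = 0.584 in limma), but lower, at -0.083, among arrays with high Y-linked signal and higher, at 0.41, among the rest.

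A second pattern in these genes ran between arrays of the same genotype. Array 2 was the highest wild-type array for 26 of the 36 members and the highest Bcl6 cKO array for 22, against 18.2% and 23.4% of all genes. It was the highest in both genotypes for 18 members, against 7.20% of all genes. These 18 were Irf7, Irf9, Ddx58, Zbp1, Adar, Oas3, Uba7, Usp18, Trim25, Trim21, Dtx3l, Parp9, Parp14, Rsad2, Ifi35, Rtp4, Xaf1 and Lgals3bp. The median deviation of the members from their own means was 0.24 on wild-type array 2 and 0.14 on Bcl6 cKO array 2. The lowest such median, -0.22, was on Bcl6 cKO array 3, which was the lowest of its genotype for 15 members. The medians over all genes lay between -0.015 and 0.020 on the 8 arrays.

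**Figure D3:**
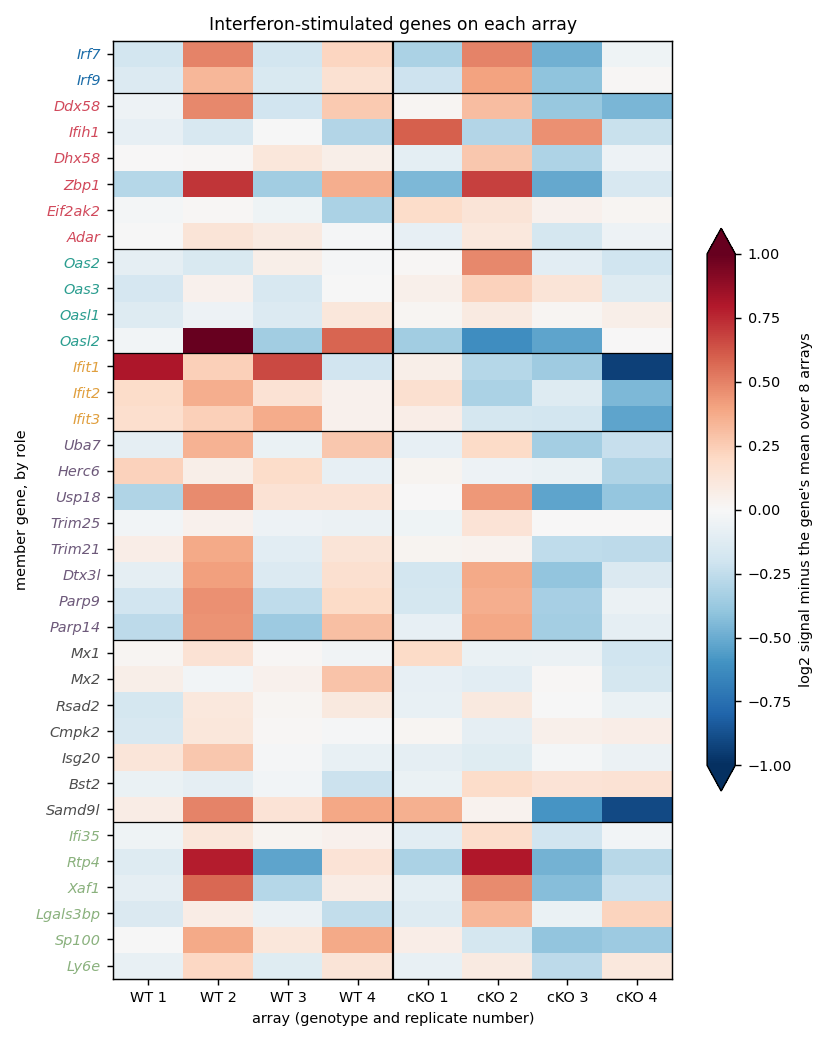
Log2 signal of each member (rows, grouped by role, gene names coloured as in the plot of differences) on each of the 8 arrays (columns), shown as the difference from the gene's mean over all arrays, red above and blue below. Wild-type array 2 and Bcl6 cKO array 2 are red for most members, while the 3 Ifit rows are red on wild-type array 2 and blue on Bcl6 cKO array 2.

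The labels number the samples of each genotype 1 to 4 and do not say what a number stands for. The members had a median log2 difference of 0.11 between arrays numbered 2 and 4 and arrays numbered 1 and 3, about the size of the genotype median. The median of all genes for the same difference was -0.005. Arrays 2 and 4 were higher for 28 of the 36 members (47.1% of all genes), and in each genotype separately for 20 (24.6% of all genes). This difference was larger than that of genotype for 21 members (58.3%, against 47.6% of all genes). It was largest for Zbp1 (0.80), Rtp4 (0.72), Oasl2 (0.625) and Irf7 (0.58), and Oasl2 had it mostly in wild type (1.12, against 0.13 in Bcl6 cKO). The Ifit genes went the other way, at -0.585 for Ifit1, -0.18 for Ifit2 and -0.21 for Ifit3, and so did Ifih1, at -0.485. Herc6 (-0.185), Mx1 (-0.0825), Eif2ak2 (-0.08) and Mx2 (-0.0175) also lay below 0. The grouping by number was chosen with results of these data known, and it is a description. Arrays 2 and 4 also had higher Xist than arrays 1 and 3 (log2 difference 3.16) and lower Eif2s3y, a Y-linked gene (-2.955). Number and Y-linked signal thus partly overlap as well, and the part of sex in this difference was not tested.

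Values of other genes that stood apart on array 2 are given beside this. Ifng, the type II interferon gene, read 7.07, 7.75, 7.17 and 7.36 in wild type and 7.24, 9.92, 7.55 and 8.40 in Bcl6 cKO (adjusted p = 0.518 in limma). Ifng was thus highest on array 2 of both genotypes, and its genotype difference was -0.09 among arrays with high Y-linked signal and 1.26 among the rest. The myeloid marker Lyz2 read 7.67 on Bcl6 cKO array 2 and 5.82 to 6.58 on the other 7 arrays. No other marker of the macrophage and dendritic cell list was highest there. Cd14 (6.06), Itgam (6.08) and Flt3 (6.68) had their lowest value of all arrays on Bcl6 cKO array 2, and Csf1r, Adgre1 and Itgax lay in between. Of the plasmacytoid dendritic cell markers, Ccr9 read 6.49, 7.02, 6.42 and 6.94 in wild type and 6.33, 7.04, 6.45 and 6.73 in Bcl6 cKO. It was highest on array 2 of both genotypes. The log2 difference of arrays 2 and 4 from arrays 1 and 3 was 0.51 for Ccr9 and 0.13 for Siglech. For Tcf4 it was -0.175 and for Spib -0.0075. The part of interferon gamma or of other cells in the pattern was not tested.

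**Figure D4:**
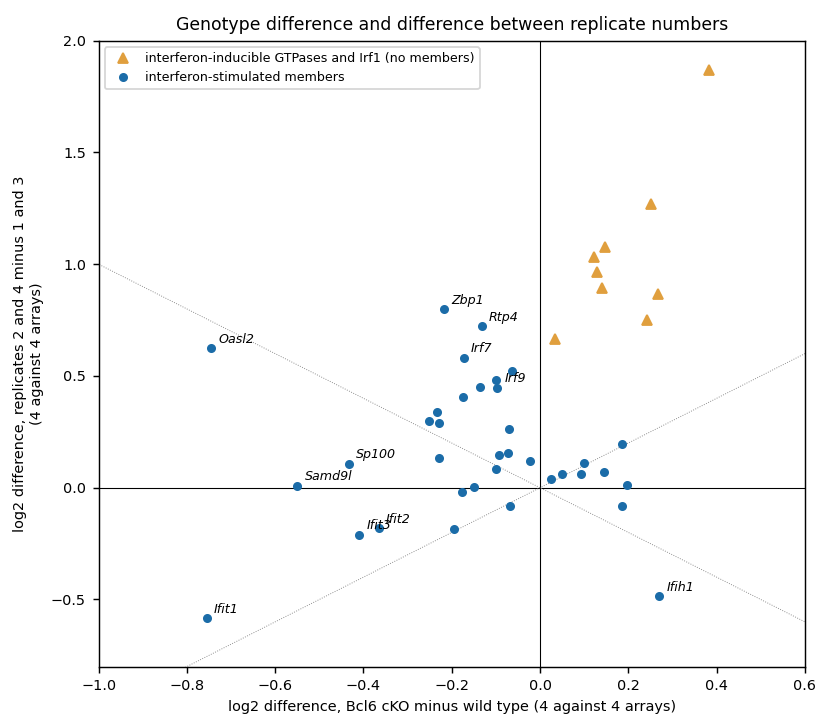
Each point is a gene, with its log2 difference between genotypes on the horizontal axis and between arrays numbered 2 and 4 and arrays numbered 1 and 3 on the vertical axis (4 against 4 arrays each, dotted lines mark equal size). Most members and all 9 genes of the GTPase and Irf1 list lie above 0 on the vertical axis. Ifit1, Ifit2, Ifit3, Ifih1, Herc6, Mx1, Eif2ak2 and Mx2 lie below it.

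The rest of the interferon pathway was read through 5 lists with 93 measured genes that are no members. In these lists 1 gene passed the threshold over all genes, Trim12a, a member of the Trim5 family of antiviral factors. It read 9.13, 9.72, 8.99 and 9.70 in wild type and 8.19, 8.45, 8.43 and 8.18 in Bcl6 cKO, and every Bcl6 cKO value lay below every wild-type value. Trim12a fell by 1.07 on the log2 scale (adjusted p = 0.0352 in limma, 0.115% of all genes passed in this direction), and it was known from earlier results when the list was made. Leaving out single arrays gave adjusted p-values from 0.0201 to 0.137, and Y-linked signal in the fit gave 0.0540. No gene of the 5 lists passed after quantile normalization, nor when any 1 of arrays 1, 2 and 4 of wild type or arrays 2, 3 and 4 of Bcl6 cKO was left out.

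Of 9 measured receptor and signal transduction genes 8 were lower, and none passed. Ifnar1, 1 chain of the type I receptor, read 10.56, 10.61, 10.59 and 10.64 in wild type and 10.49, 10.37, 10.24 and 10.19 in Bcl6 cKO. The groups did not overlap, the wild-type arrays lay within 0.08 of each other, and the log2 difference was -0.28 (-0.43 to -0.13, adjusted p = 0.149 in limma). It was -0.097 among arrays with high Y-linked signal and -0.37 among the rest. Il10rb, a shared chain of the interleukin-10 and interferon lambda receptors, read 10.16, 10.08, 10.27 and 9.96 in wild type and 9.93, 9.76, 9.68 and 9.75 in Bcl6 cKO. It did not overlap either, with a log2 difference of -0.34 (-0.51 to -0.17, adjusted p = 0.124 in limma). Non-overlap in this direction was found for 3.64% of all genes. Ifnar2, the other chain of the type I receptor, differed by -0.145 and Ifngr2, a chain of the interferon gamma receptor, by 0.0125. All 4 lie on chromosome 16, as Bcl6 itself does, and the part of this location in their differences was not tested.

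Of 16 genes for interferon ligands and their induction 9 were lower and 7 higher, and none passed. Ikbke, a kinase that activates Irf3, had a log2 difference of -0.28, and Samhd1, a nucleotide-degrading restriction factor, one of -0.375 (adjusted p = 0.392 and 0.428 in limma). Ifnb1, which encodes interferon beta, was not shown to stand above background in the Bcl6 cKO or wild-type arrays (means 5.75 and 5.78). Of 13 inhibitors of the pathway 7 were higher and 6 lower, none with an unadjusted p under 0.05. The phosphatase gene Ptpn2 (0.13) and the Stat inhibitor gene Pias3 (-0.13) had the smallest p-values there (adjusted p = 0.539 and 0.541 in limma).

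Of 46 other interferon-stimulated genes 34 were lower and 12 higher (73.9% lower), and Trim12a was the 1 past the threshold. Next in p was Helz2, an interferon-induced helicase-like coactivator, with 9.70, 9.79, 9.80 and 9.70 in wild type and 9.50, 9.51, 9.59 and 9.48 in Bcl6 cKO. Its groups did not overlap, with a log2 difference of -0.23 (-0.34 to -0.12, adjusted p = 0.118 in limma). All 9 measured genes of the list of interferon-inducible GTPases, which attack parasite vacuoles, and Irf1 were higher, by a median of 0.15, and none had an unadjusted p under 0.05. The median turned to -0.097 among arrays with high Y-linked signal and to -0.13 among the rest, where 7 and 5 of the 9 were lower. In the same genes arrays 2 and 4 were above arrays 1 and 3 by a median of 1.18 in wild type and 0.82 in Bcl6 cKO. Irf1 (0.24) and Irgm1 (0.27) had the smallest p-values among them (adjusted p = 0.807 and 0.833 in limma).

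**Figure D5:**
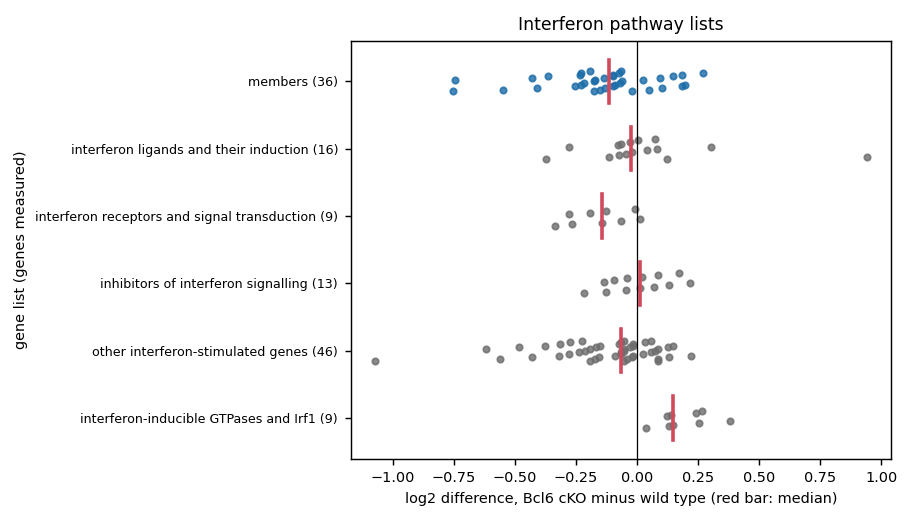
Log2 difference (Bcl6 cKO minus wild type, horizontal axis) of each gene of the members and of the 5 pathway lists (rows, genes measured in brackets), with the median as a red bar. The members and the lists of ligands, receptors and other interferon-stimulated genes have medians below 0. The inhibitor list has a median of 0.0125, the GTPase list lies wholly above 0, and the point farthest left is Trim12a.

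Promoter windows from 250 bases before to 50 after the transcript start were given by RefSeq (GRCm38.p6) for 26 of the 36 members, with 33 windows. The response element core, searched on both strands, was found in 9 of the 33 windows (27.3%), against 3.44% of all 32851 windows. Its 9 genes were Bst2, Ddx58, Eif2ak2, Ifih1, Ifit1, Ifit3, Oas3, Rsad2 and Trim21. They include genes that were higher and genes that were lower in Bcl6 cKO. Stretches of 30 bases around this core, in capitals, are shown for those of the 9 genes that hold it on their own strand. The search itself fixes every letter of the core but the middle 2, so likeness there is no result.
Bst2: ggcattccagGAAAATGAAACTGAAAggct
Eif2ak2: agtccgccggGAAAACGAAAcagaagagaa
Ifih1: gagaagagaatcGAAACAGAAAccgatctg
Oas3: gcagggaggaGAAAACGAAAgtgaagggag
Trim21: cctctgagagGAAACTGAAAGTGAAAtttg
They lie at chr8:71537583-71537612 (Bst2), chr17:78882535-78882564 (Eif2ak2), chr2:62646206-62646235 (Ifih1), chr5:120777715-120777744 (Oas3) and chr7:102565450-102565479 (Trim21), all on the minus strand. Eif2ak2 and Oas3 carry the same 10 letters, GAAAACGAAA, and both were higher in Bcl6 cKO without passing the threshold, while Trim21 was lower. Trim21 and Bst2 each hold 2 overlapping cores, and Bst2 was higher, also without passing.

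A core of the Bcl6 motif, TTCCTNGAA (TTCNAGGAA on the other strand), was found in windows of 3 members, Adar, Bst2 and Ifit2, or 9.09% of the 33 windows against 1.59% of all windows. Every such match is also a match of the wider Stat motif TTCNNNGAA, found in 18.2% of the members' windows and 8.30% of all. The stretches are shown because these are the member promoters whose letters match the motif of the deleted factor.
Adar: ggggaagccttTTCAAGGAAacgaaagtga
Bst2: ttctaggggcaTTCCAGGAAaatgaaactg
Ifit2: catgggagcTTCCTGGAAgaatggataaaa
They lie at chr3:89730729-89730758 on the plus strand (Adar), chr8:71537590-71537619 on the minus strand (Bst2) and chr19:34550444-34550473 on the plus strand (Ifit2). In Bst2 the match lies beside the response element and overlaps it in the letters GAA. The log2 differences of these genes were -0.10, 0.20 and -0.365, so they were not all in 1 direction. A match of letters is a description and does not show that a factor binds there.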

How the data were processed

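Biotin-labelled DNA made from 100 ng of total RNA of each of 8 samples by Affymetrix's WT protocol was hybridised to 1 array each, per the labels' protocols. The authors deposited log2 signals, 1 per transcript cluster and array. RMA and Partek are named in the submitters' processing notes, with versions and settings not given in the sources used here. RMA, which works in log2, narrows differences of dim genes. Arrays have no read depth, so their number limits the precision.

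Of 35556 clusters 21789 have 1 gene symbol, 1621 several and 12146 none. Clusters with 1 symbol were used, and the brightest was kept for each of 999 genes with several clusters (none a member). The comparison, Bcl6 cKO minus wild type, used lmFit and eBayes of limma 3.58.1 under R 4.3.3 without covariates, with p-values adjusted by Benjamini and Hochberg over 19938 genes. No filter was applied. The median standard error was 0.114 for members and 0.0653 for all genes. Tested on simulated data for this comparison (200 of 19938 genes changed, 20 simulations), limma recovered 84.2% of changes of 0.5 and 97.8% of changes of 1 on the log2 scale. The changed genes were drawn at random from all genes. These shares therefore do not give the recovery for the members, whose median standard error was larger.

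The members, lists, alternatives and the rule for named genes were chosen with earlier results of these data known. The rule gives array values for members past the threshold, those without overlap, the 10 with the smallest p, the 3 with the widest range, and at least 1 per role, and names the 2 smallest p and any call of each pathway list.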

Additional observations from a re-analysis of the deposited data

Results flagged for a closer look

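In groups of 4 arrays, a sample whose gap to its nearest neighbour takes up more of the whole range than Dixon's 95% critical value stands apart. Of 74 groups examined (36 members and Trim12a, each in both genotypes) 2 held such a sample, and chance marks about 1 group in 20. The Eif2ak2 value of wild-type replicate 4 was 7.82, below 8.10 to 8.15 on the other wild-type arrays (ratio 0.848). The Rtp4 value of Bcl6 cKO replicate 2 was 8.30, above 7.02 to 7.22 on the other Bcl6 cKO arrays (ratio 0.844).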

How the results depend on the processing

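The number of members past the threshold stayed 0 in every fit except that with the replicate number as a block, where 1 passed, Ifit1 (log2 difference -0.755, adjusted p = 0.0223 in limma). Same-numbered arrays correlated by 0.073, 0.206, 0.203 and 0.205 in their deviations from the group means, wild-type array 1 correlated best with Bcl6 cKO array 3, and arrays 2, 3 and 4 of wild type each correlated best with their own number. Since 1 pair stayed under 0.1 and the labels do not say what a number stands for, the numbers were not taken to pair the samples. The block gave 15 members at an unadjusted p under 0.05, against 10 without it, and changed no other call among members. Over all genes 12.4% had such a p with the block and 10.9% without it. With odd or even number as a term, chosen after the data were seen, 33 genes were higher and 60 lower over all genes, against 21 and 23 without it. The counts of genes higher and lower over all genes were 5 and 5 with Y-linked signal as a term and 42 and 90 at an adjusted p of 0.1. Genes lower numbered 51 with array weights, 42 and 52 with filters at the 30th percentile and the median, 61 with trend and robust moderation, 13 after median centring and 14 after quantile normalization. Leaving out single arrays gave 5 to 39 genes higher and 5 to 100 lower. Members without overlap, 1 in the main comparison, numbered 0 after median centring and 3 after quantile normalization. They numbered 2 to 8 without single arrays, 8 without Bcl6 cKO replicate 1, 6 without wild-type replicate 4 and 4 without Bcl6 cKO replicate 2. The shares of all genes at these settings were not counted, and leaving out an array makes non-overlap easier for any gene. Members above wild type, 9 of 36 in the main comparison, numbered 8 of 32 and 7 of 26 under the filters and 8 to 14 of 36 without single arrays, where their median log2 difference ranged from -0.21 to -0.033. Pathway genes past the threshold, 1 in the main comparison, were 0 with Y-linked signal as a term and after quantile normalization, and 0 to 2 without single arrays. Mx1 turned to 0.032 with Y-linked signal as a term. Leaving out single arrays turned the sign of 9 members, with ranges of -0.25 to 0.019 for Irf9, -0.0525 to 0.17 for Oas2, -0.24 to 0.035 for Parp9, -0.20 to 0.077 for Parp14, -0.084 to 0.0092 for Rsad2, -0.024 to 0.066 for Cmpk2, -0.42 to 0.11 for Rtp4, -0.315 to 0.033 for Xaf1 and -0.12 to 0.0058 for Ly6e. Of 634 values of members under alternatives, 619 kept direction and side of the threshold. The causes were not tested.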
